A study of Mus musculus with 6 samples.

Results

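The 10 genes described here encode proteins that airway epithelium secretes, or uses to carry antibodies, in defence of the airway surface. They were chosen by symbol, as secreted antimicrobial, antiprotease and immunoglobulin transport genes, with earlier results of these data known. All 10 were found among the 21225 genes on the arrays. Gene expression was measured in whole lungs of C57BL/6 mice at E18.5, 3 control lungs and 3 RbpjkCNULL lungs, with 1 Affymetrix Mouse Gene 1.0 ST array per lung. RbpjkCNULL embryos were Shhcre/+; RbpjkFlox/Flox, so that cre driven from the Shh locus removes Rbpj, the transcription factor of canonical Notch signaling, from the airway epithelium. The controls were labelled wildtype in one field and Shh cre/+ in another, so it is not settled whether the cre allele was shared by all 6 lungs. RbpjkCNULL lungs were also labelled Rbpjk -/-. Only tissue from the carina downwards was taken, so the trachea was not included. In RNA of whole lung, fewer cells of a type and less RNA per cell cannot be told apart. Rbpj itself had log2 values of 6.45 to 6.74 in the controls and of 6.17 to 6.26 in the RbpjkCNULL lungs, a log2 fold change of -0.36 (standard error 0.09, adjusted p = 0.209 from limma). All RbpjkCNULL lungs were below the controls, in RNA that also holds the other cells of the lung.

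Airway secretory cells coat the epithelium with proteins that bind, starve or digest microbes and with inhibitors that protect the tissue from proteases of leukocytes. Bpifa1 and Bpifb1 are members of the BPI-fold family of lipid-binding proteins. Slpi and Wfdc2 carry WAP domains, and Slpi inhibits serine proteases such as neutrophil elastase. Lyz2 is a lysozyme, which cuts peptidoglycan, and Pglyrp1 binds it. Lcn2 sequesters bacterial siderophores and Ltf, lactoferrin, binds iron. Pigr carries polymeric IgA across epithelium, and Saa3 is an inducible serum amyloid A. Several of these are not particular to epithelium: Ltf, Lcn2 and Pglyrp1 are also stored in neutrophil granules, and Lyz2 is also made by macrophages and alveolar type 2 cells.

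None of the 10 genes passed the test over all genes. At an adjusted p under 0.05 from limma, 0 of 10 were higher and 0 of 10 lower in RbpjkCNULL lungs, while 1.27% of all genes passed in either direction and 0.113% were lower. Before adjustment, at p under 0.05, 5 of the 10 were lower and 0 higher by limma, and the same 5 reached this p by the methods' t-test, which called 0 after adjustment. The count of 5 included Slpi, which stayed below this threshold in 7 of 19 alternatives, while Saa3, Wfdc2, Bpifb1 and Pglyrp1 did so in all that could be fitted. Over all genes, 4.97% were lower at that unadjusted p. The same 5 genes, Saa3, Bpifb1, Pglyrp1, Wfdc2 and Slpi, were those in which every RbpjkCNULL lung lay below every control lung, which was the case for 9.28% of all genes. The remaining 5, Bpifa1, Lyz2, Lcn2, Ltf and Pigr, had groups that overlapped. The median log2 fold change of the 10 genes was -0.21, against -0.05 over all genes, and 9 of the 10 were below 0, as were 68.1% of all genes.

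**Figure D1:**
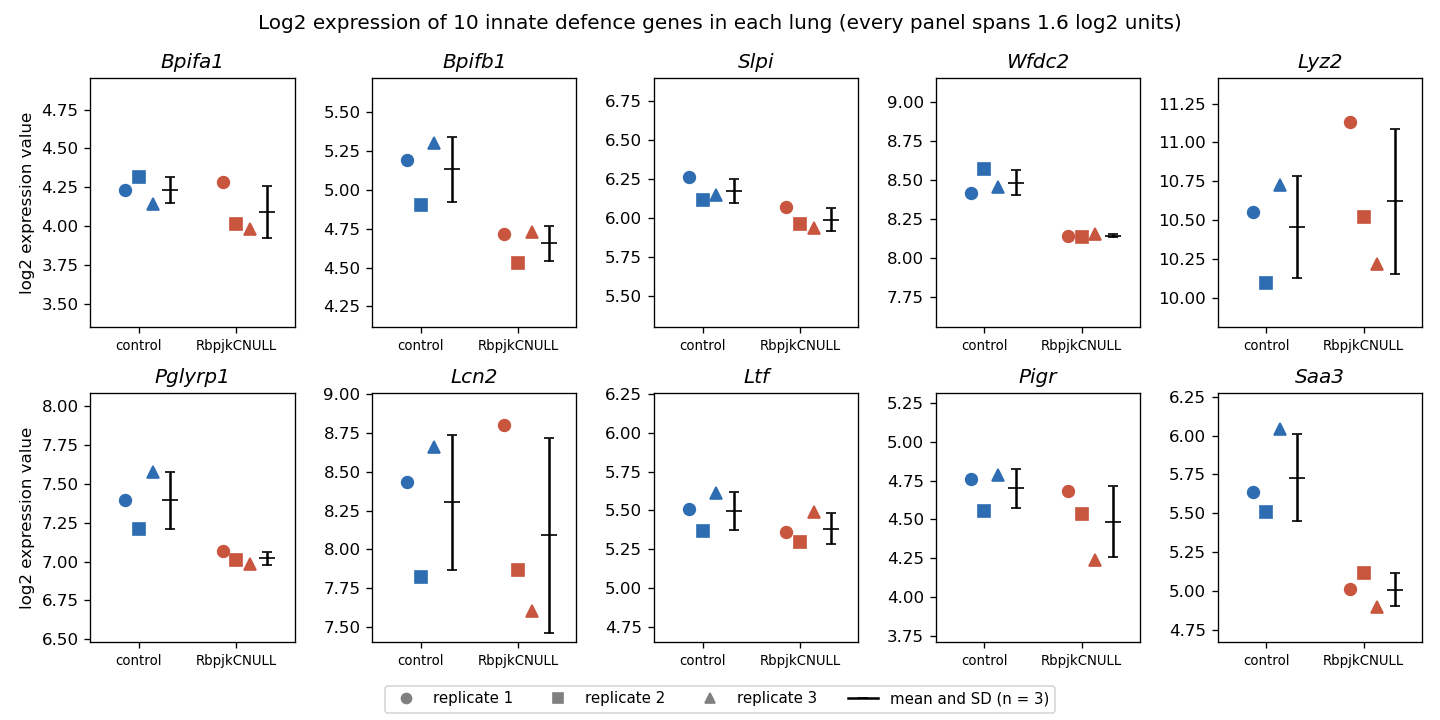
Log2 expression value (vertical axis) of each of the 10 genes in the 3 control (blue) and 3 RbpjkCNULL (red) lungs, with the symbol giving the replicate and the black bar the mean and SD. The RbpjkCNULL lungs lie below all controls for Saa3, Bpifb1, Pglyrp1, Wfdc2 and Slpi, while Lyz2 and Lcn2 spread widely within both groups.

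Promoter sequences are shown for the genes with separate groups that held a match to any of 4 motifs. All 10 genes had an entry in the RefSeq promoter table of GRCm38.p6, and the 250 bases before the listed transcription start were read, 5′ to 3′ on the strand of the gene. Both strands were searched for the core of the site bound by RBPJ, spelled TGGGAA. The other motifs were the C/EBP site, spelled TTGCNNAA, and the NF-kB consensus, with the TATA box read as the letters TATAAA. No 2 matches overlapped in the windows shown, and capitals mark the matches.
Saa3, chr7:46715677-46715926, minus strand: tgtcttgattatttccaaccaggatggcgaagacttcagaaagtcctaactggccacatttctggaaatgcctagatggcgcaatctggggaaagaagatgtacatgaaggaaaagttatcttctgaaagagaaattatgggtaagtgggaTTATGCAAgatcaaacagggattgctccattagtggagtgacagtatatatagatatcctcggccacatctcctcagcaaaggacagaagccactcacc
Wfdc2, chr2:164562465-164562714, plus strand: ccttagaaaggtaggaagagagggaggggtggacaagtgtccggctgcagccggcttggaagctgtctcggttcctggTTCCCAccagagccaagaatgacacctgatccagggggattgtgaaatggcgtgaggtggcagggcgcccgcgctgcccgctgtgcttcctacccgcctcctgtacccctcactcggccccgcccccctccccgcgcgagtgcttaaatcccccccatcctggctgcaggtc
Pglyrp1, chr7:18884440-18884689, plus strand: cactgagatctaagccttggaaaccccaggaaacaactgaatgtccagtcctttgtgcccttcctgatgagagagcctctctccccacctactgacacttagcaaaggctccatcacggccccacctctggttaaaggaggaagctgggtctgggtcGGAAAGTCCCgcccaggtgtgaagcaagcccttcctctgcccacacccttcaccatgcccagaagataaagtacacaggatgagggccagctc
Slpi, chr2:164356508-164356757, minus strand: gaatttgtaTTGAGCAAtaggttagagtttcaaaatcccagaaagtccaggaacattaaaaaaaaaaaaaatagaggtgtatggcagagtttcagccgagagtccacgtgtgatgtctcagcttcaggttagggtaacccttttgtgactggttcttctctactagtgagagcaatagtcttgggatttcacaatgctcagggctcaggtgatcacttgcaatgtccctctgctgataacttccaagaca
The capitals are a C/EBP match in Saa3 and in Slpi, an RBPJ core in Wfdc2 and an NF-kB match in Pglyrp1, and all 4 match the motif on the strand opposite to the one printed. Both listed starts of Bpifb1 had no match. Among the 10 genes, 4 held the RBPJ core, Bpifa1, Wfdc2, Lyz2 and Pigr, of which Wfdc2 alone had separate groups, and 4 held C/EBP, Slpi, Lcn2, Ltf and Saa3, of which Slpi and Saa3 had separate groups. The TATA box (Bpifa1) and NF-kB (Pglyrp1) were each in 1. The RBPJ core was in 21.6% of 32851 promoter windows, C/EBP in 9.56%, the TATA box in 12.4% and NF-kB in 3.9%. These shares are per window and the counts of the 10 are per gene, which can have more than 1 window. A match is a description of the letters and not a measured site. Bpifa1, Bpifb1, Slpi, Wfdc2 and Lcn2 are all on chromosome 2, where 1 protein-coding gene lies between Bpifa1 and Bpifb1 and 7 lie between Slpi and Wfdc2.

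Saa3 had the largest difference of the 10, and its mean over all lungs was at percentile 31.1 of all genes. In the RbpjkCNULL lungs Saa3 was close to the lower quartile of all values, which was 4.87 to 5.03 on those arrays. Its log2 expression values were 5.64, 5.51 and 6.04 in the control lungs and 5.02, 5.11 and 4.90 in the RbpjkCNULL lungs. The lowest control lung was 0.39 above the highest RbpjkCNULL lung. The log2 fold change was -0.72 (standard error 0.14, 95% interval -1.05 to -0.39, adjusted p = 0.0756 from limma), which is 1.65-fold lower. It passed at adjusted p = 0.0437 when control replicate 2 was left out and at 0.0300 with array weights. Without control replicate 2, the remaining controls had lower quartiles of 5.11 and 5.08, above those of all RbpjkCNULL arrays. Genotype and lower quartile cannot be told apart in that setting. In the other alternatives Saa3 did not pass, with an adjusted p up to 0.407 by the methods' t-test. Of the other acute phase genes, 1 of 16 fell, 0 rose (before adjustment, 2 lower) and the median was -0.09. The gene that fell was Hp, haptoglobin (-1.31, standard error 0.08, 2.48-fold lower, adjusted p = 0.00145), which the study chose on these arrays. Its direction on these arrays is therefore not independent evidence. The study also reported Hp lower at E18.5 by quantitative RT-PCR and by RNA in situ hybridization. The close relatives of Saa3 had smaller values that did not pass, -0.28 for Saa1, -0.10 for Saa2 and -0.11 for Saa4 (log2). The 5 genes with the most similar profile to Saa3, by Euclidean distance between gene-centred log2 values over the 6 lungs, were Scgb3a1 (0.29), Set (0.30), Rnu7 (0.34), Muc5b (0.35) and Iglc2 (0.36).

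The WAP genes Wfdc2 and Slpi both had separate groups, with different margins. Wfdc2 had log2 values of 8.42, 8.57 and 8.45 in control lungs and of 8.14, 8.13 and 8.15 in RbpjkCNULL lungs. The RbpjkCNULL lungs lay close together, with an SD of 0.0095, and the lowest control was 0.27 above them. The log2 fold change of Wfdc2 was -0.34 (standard error 0.07, 95% interval -0.50 to -0.18, adjusted p = 0.0941 from limma), or 79.0% of the control level. It passed at adjusted p = 0.0242 with a mean-dependent variance in limma, 0.0492 with array weights and 0.0309 among genes over the median level. With array class as a block, a setting chosen after seeing the data, it passed at 0.0496. The 2 classes are those of the lower quartile described further on. In the other alternatives Wfdc2 did not pass, with an adjusted p up to 0.711 from limma. Slpi had log2 values of 6.26, 6.11 and 6.15 in controls and of 6.07, 5.96 and 5.93 in RbpjkCNULL. The gap between the groups was 0.04, and the log2 fold change was -0.18, with a standard error of 0.08, a 95% interval of -0.36 to -0.01 and an adjusted p of 0.559 from limma. Of 20 other WAP genes, 0 passed the test (before adjustment, 1 lower at p under 0.05), with a median of -0.14. The smallest p among them were those of Wfdc1 (-0.27, adjusted p = 0.379) and Wfdc21 (-0.29, adjusted p = 0.664). The 5 genes nearest to Wfdc2 in profile were Trpm3 (distance 0.02), Greb1 (0.09), Mgat3 (0.10), Bnc2 (0.11) and Sulf2 (0.12), none of which passed the test.

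The BPI-fold genes differed from each other in their values. Bpifb1 had log2 values of 5.19, 4.90 and 5.30 in control lungs and of 4.72, 4.53 and 4.73 in RbpjkCNULL lungs. The groups were 0.17 apart, and the log2 fold change was -0.48 (standard error 0.12, 95% interval -0.75 to -0.20, adjusted p = 0.187 from limma), or 1.39-fold lower. Bpifb1 passed at adjusted p = 0.0470 without control replicate 2 and at 0.0471 with the replicate number as a block. The limit given for Saa3 without that control holds here too. In the other alternatives Bpifb1 did not pass, with an adjusted p up to 0.584 from limma. Bpifa1 had values of 4.23, 4.32 and 4.14 in controls and of 4.28, 4.01 and 3.98 in RbpjkCNULL. RbpjkCNULL replicate 1 lay among the controls, and the log2 fold change was -0.14 (standard error 0.10, 95% interval -0.37 to 0.10, adjusted p = 0.744 from limma). The difference between the changes of the BPI-fold pair was not tested. The mean of Bpifa1 over all lungs was at the 14.6th percentile of all genes and that of Bpifb1 at the 23.7th. Of 13 other BPI-fold genes, 0 passed the test (also 0 before adjustment), with a median of -0.12, and the smallest p were those of Bpifa6 (-0.19) and Bpifb9b (-0.49), at adjusted p = 0.649 and 0.664.

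**Figure D2:**
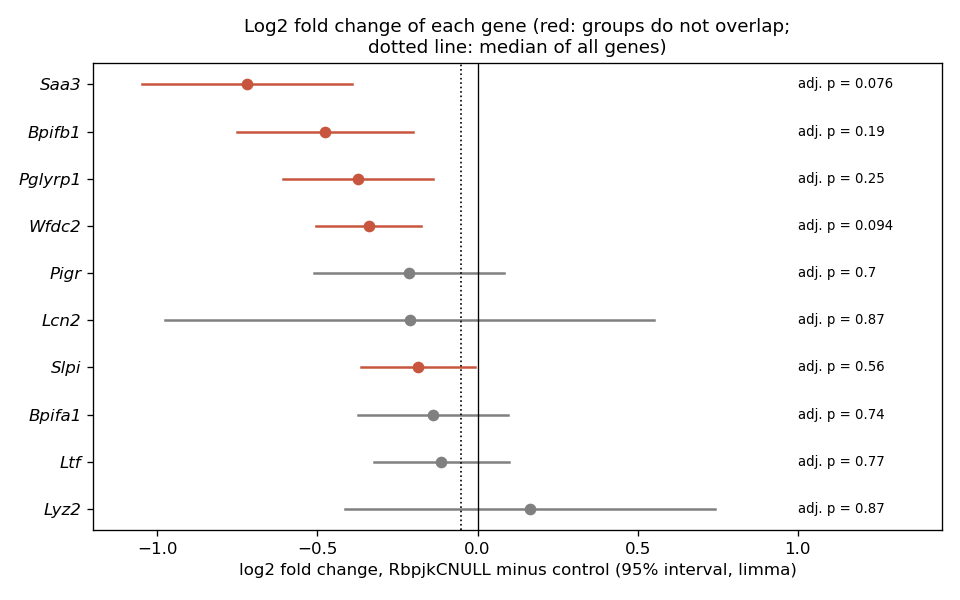
Log2 fold change, RbpjkCNULL minus control (horizontal axis), of each gene with its 95% interval from limma and adjusted p over all genes. The intervals of Saa3, Bpifb1, Pglyrp1, Wfdc2 and Slpi (red, groups that do not overlap) lie below 0, and those of Lcn2 and Lyz2 are the widest.

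Of the genes that act on the bacterial cell wall, Pglyrp1 was lower in every RbpjkCNULL lung and Lyz2 was not. Pglyrp1 had log2 values of 7.40, 7.21 and 7.58 in controls and of 7.07, 7.01 and 6.98 in RbpjkCNULL. The gap between the groups was 0.14, and the log2 fold change was -0.37 (standard error 0.10, 95% interval -0.61 to -0.14, adjusted p = 0.251 from limma), or 1.30-fold lower. Lyz2 had values of 10.55, 10.09 and 10.72 in controls and of 11.13, 10.52 and 10.22 in RbpjkCNULL. The highest of the 6 lungs was RbpjkCNULL and the lowest a control, and the log2 fold change was 0.16 (standard error 0.25, 95% interval -0.41 to 0.74, adjusted p = 0.869 from limma). Lyz1, a close paralog whose probes may share signal with Lyz2, had a similar value of 0.20 (standard error 0.35, adjusted p = 0.888). Of 9 other lysozyme and peptidoglycan recognition genes, Lyz1 included, 0 passed (before adjustment, 1 lower at p under 0.05), with a median of -0.09. The smallest p were those of Lyzl4 (-0.20, adjusted p = 0.472) and Pglyrp4 (-0.22, adjusted p = 0.614).

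The iron-binding and siderophore-binding genes overlapped between the groups. Lcn2 had log2 values of 8.43, 7.82 and 8.66 in control lungs and of 8.80, 7.87 and 7.61 in RbpjkCNULL lungs. The highest and the lowest lung were both RbpjkCNULL, and the log2 fold change was -0.21, with a standard error of 0.33 and an adjusted p of 0.874 from limma. Its 95% interval, -0.98 to 0.55, spans a 1.97-fold lower and a 1.47-fold higher level. Ltf varied little, with 5.51, 5.37 and 5.61 in controls and 5.36, 5.29 and 5.49 in RbpjkCNULL, and a log2 fold change of -0.11 (standard error 0.09, 95% interval -0.32 to 0.10, adjusted p = 0.766). Of 14 other lipocalin and transferrin genes measured, 0 passed (before adjustment, 1 lower at p under 0.05), with a median of -0.08. The 1 was Trf, the serum iron carrier transferrin, at -0.62 (standard error 0.15, adjusted p = 0.172), with separate groups, and the next smallest p was that of Lcn5 (-0.23, adjusted p = 0.636). Pigr had log2 values of 4.76, 4.55 and 4.78 in controls and of 4.69, 4.54 and 4.24 in RbpjkCNULL. RbpjkCNULL replicate 3 was the lowest lung, and the log2 fold change was -0.21 (standard error 0.13, 95% interval -0.51 to 0.08, adjusted p = 0.698). Of 4 other immunoglobulin-related genes, not all of them transporters, 0 passed (also 0 before adjustment), with a median of -0.17. The values were -0.23 for the J chain gene Jchain and -0.23 for Fcmr.

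Lyz2, Lcn2 and Pigr differed more between arrays of different lower quartile than between the genotypes, with the mean of the arrays of higher quartile above that of the others by 0.53, 0.86 and 0.30 on the log2 scale. The lower quartile of all values was 5.11 in control replicate 1, 5.08 in control replicate 3 and 5.03 in RbpjkCNULL replicate 1, and 4.87 to 4.89 in the other 3 arrays. In the 3 arrays with the higher quartile Lcn2 ran from 8.43 to 8.80, and in the others from 7.61 to 7.87. Lyz2 ran from 10.55 to 11.13 and from 10.09 to 10.52, and Pigr from 4.69 to 4.78 and from 4.24 to 4.55. Pigr was below the lower quartile of its own array in every lung. All 3 arrays of the higher class lay above the others for Lyz2, Lcn2 and Pigr, 3 of the 10 genes. This was also the case for 23.2% of all genes, a similar share, and what the class stands for was not tested. Lyz1 had the same order, as did 1 of 12 alveolar type 2 markers (S100g). Within the classes, RbpjkCNULL minus control was 0.25 and -0.08 for Lcn2 and 0.49 and 0.27 for Lyz2, in the higher and the lower class. It was 0.09 and -0.32 for Bpifa1, -0.20 and 0.02 for Ltf, and -0.09 and -0.17 for Pigr. For the genes with separate groups this difference must be negative in both classes, so only its size could vary. It was -0.82 and -0.50 for Saa3, -0.30 and -0.43 for Wfdc2, and -0.53 and -0.27 for Bpifb1. For Pglyrp1 it was -0.42 and -0.21, and for Slpi -0.13 and -0.17. With the class as a block in limma, which pools these within-class differences, Lyz2 was 0.38 higher (standard error 0.11, adjusted p = 0.178) and Lcn2 0.09 higher (adjusted p = 0.856). In the same fit Saa3 was at -0.66 (adjusted p = 0.0632), Bpifb1 at -0.40 (adjusted p = 0.101), Pglyrp1 at -0.32 (adjusted p = 0.155) and Slpi at -0.15 (adjusted p = 0.476).

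**Figure D3:**
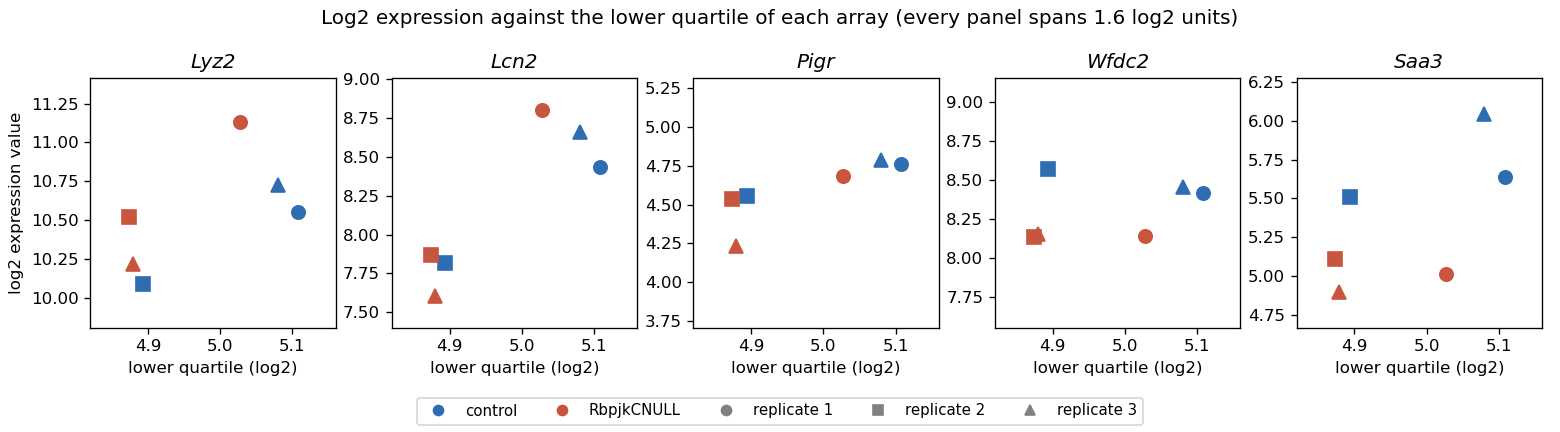
Log2 expression value of 5 genes (vertical axis) against the lower quartile of each array (horizontal axis, log2), with control lungs in blue and RbpjkCNULL lungs in red. Lyz2, Lcn2 and Pigr are higher in the 3 arrays with a lower quartile over 5, of both groups. Wfdc2 and Saa3 have separate groups, so they must be lower in the RbpjkCNULL lungs at either quartile.

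The groups also differed in the sex of the embryos. Xist, which coats the silenced X chromosome in female cells, was at log2 values of 10.46 and 10.68 in control replicates 1 and 2 and of 4.13 to 4.91 in the other 4 lungs, where the Y-linked gene Kdm5d was 7.34 to 8.43. Control replicate 3 was therefore the 1 control lung of the same sex as the RbpjkCNULL lungs, and for the other 2 controls sex and genotype cannot be told apart. In the genes with separate groups this control must lie above every RbpjkCNULL lung, so only the distance could vary. For Saa3 it was 0.93 above the highest RbpjkCNULL lung, for Bpifb1 0.58, for Pglyrp1 0.51, for Wfdc2 0.30 and for Slpi 0.08. In the genes whose groups overlap the same difference was 0.12 for Ltf, 0.10 for Pigr, -0.14 for Bpifa1, -0.14 for Lcn2 and -0.41 for Lyz2. Control replicate 3 is an array of the higher quartile, as is only replicate 1 of the RbpjkCNULL lungs. With the lungs of low Xist alone, 1 control against 3 RbpjkCNULL, the log2 fold change was -1.03 for Saa3 (adjusted p = 0.0767) and -0.65 for Bpifb1 (adjusted p = 0.232), with the lone control assumed to vary like the RbpjkCNULL lungs. It was -0.56 for Pglyrp1 (adjusted p = 0.203), -0.31 for Wfdc2 (adjusted p = 0.474) and -0.16 for Slpi (adjusted p = 0.759).

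Other secreted defence genes of the airway included some that passed. Of 31 measured, 5 fell, 0 rose and 26 did not pass (before adjustment, 9 lower and 1 higher at p under 0.05), and the median was -0.17. Those that fell were the secretoglobins Scgb1a1 (-5.37), Scgb3a2 (-3.95) and Scgb3a1 (-0.69), the antibacterial lectin Reg3g (-3.30) and the gel-forming mucin Muc5b (-0.54), with adjusted p from 0.00075 to 0.0241. Scgb1a1, Scgb3a2 and Reg3g were chosen by the study on these arrays, so their array values give no independent evidence of a direction. The study also reported them lower at E18.5 by quantitative RT-PCR and by RNA in situ hybridization. The list of 24 NF-kB and cytokine response genes holds receptors as well as genes induced in inflammation. Of these 24, 0 passed by limma (before adjustment, 0 at p under 0.05 by limma and 1 by the methods' t-test), with a median of -0.07. The smallest p from limma were those of Cxcl2 (-0.28, adjusted p = 0.635) and Cxcl5 (-0.14, adjusted p = 0.696).

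**Figure D4:**
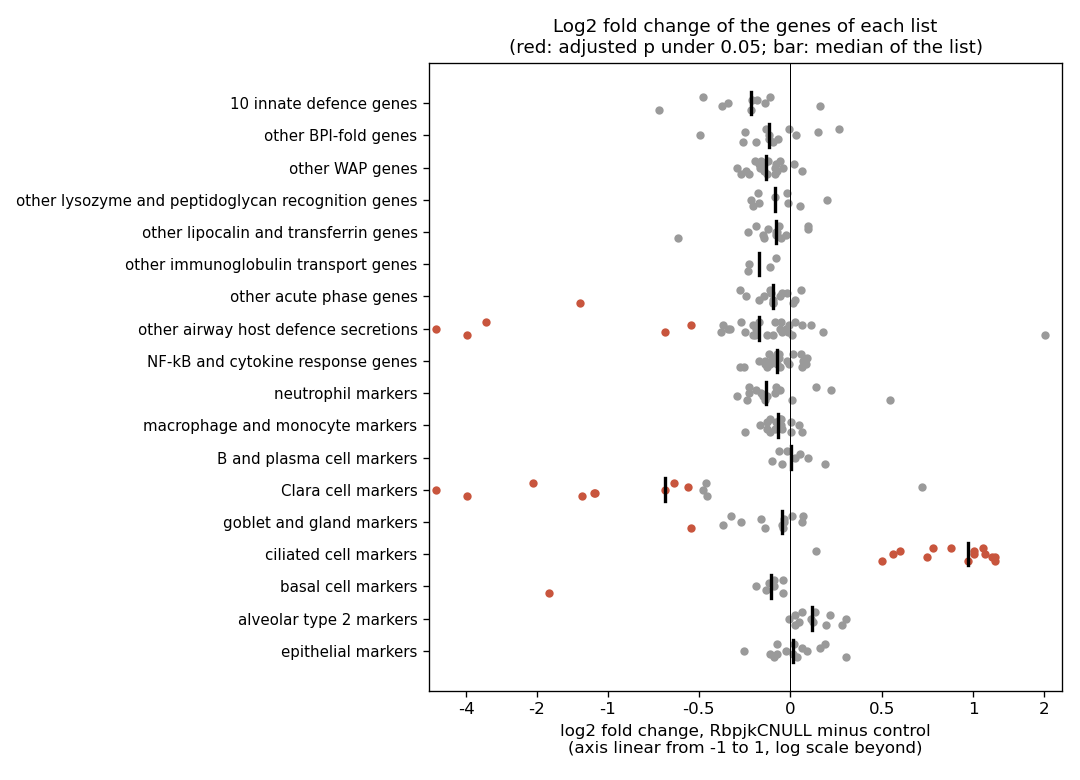
Log2 fold change, RbpjkCNULL minus control (horizontal axis, linear from -1 to 1 and logarithmic beyond), of every measured gene of each list, in red where the adjusted p was under 0.05, with a bar at the median. None of the 10 innate defence genes is red, while 9 of 13 Clara cell markers are red on the left and 14 of 15 ciliated cell markers on the right.

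Markers of cell types of the lung, not all of them known sources of these proteins, moved in part with the groups. Of 13 Clara cell (CC) markers 9 fell (before adjustment, 11 lower and 1 higher at p under 0.05), with summed linear levels of 6833 to 7868 in control lungs and 2687 to 3700 in RbpjkCNULL, and Scgb1a1, Scgb3a2, Cyp2f2, Cbr2, Upk3a and Gabrp among them were chosen by the study on these arrays. The CC genes Cyp2f2, Cbr2, Upk3a and Gabrp were 4.20-fold, 2.44-fold, 2.20-fold and 2.19-fold lower, and Gsta3 and Lypd2 had log2 fold changes of -0.56 and -0.64. Aldh1a1, a retinaldehyde dehydrogenase on the same list and named here after its values were seen, was higher in every RbpjkCNULL lung than in the controls (0.72, standard error 0.14, adjusted p = 0.0805). Of 15 ciliated cell markers 14 rose (before adjustment also 14), with sums of 1336 to 1572 and 2755 to 2867, Rsph4a and Foxj1 among them (log2 fold changes of 1.24 and 0.78). Of 13 goblet and gland markers 1 fell (Muc5b, and before adjustment 4 lower and 0 higher at p under 0.05), with sums of 800 to 896 and 754 to 848. Of 8 basal cell markers 1 fell (Krt15, -1.77, chosen by the study, and before adjustment also 1), with sums of 973 to 1012 and 770 to 814. The other 7 basal cell markers did not pass, and the median of the list was -0.10. How much of the difference in the basal cell sums came from Krt15 was not separated. Of 16 neutrophil markers 0 passed (before adjustment, 1 higher and 2 lower at p under 0.05), with sums of 547 to 644 in controls and 583 to 680 in RbpjkCNULL, which overlap. Cd177 had the smallest p among them (0.54, adjusted p = 0.146) and Fcnb the next (-0.23, adjusted p = 0.493). Of 16 macrophage and monocyte markers 0 passed (also 0 before adjustment), with sums of 1725 to 1929 and 1627 to 1783, and of 8 B and plasma cell markers 0 passed (also 0 before adjustment), with sums of 282 to 347 and 303 to 356. Cd68 (-0.25), Marco (-0.17), Vpreb1 (0.19) and Mzb1 (0.10) had the smallest p of these lists. The alveolar type 2 markers were high in all lungs, Sftpc at 12.81 to 12.93, and 0 of 12 passed (1 higher before adjustment), with sums of 24359 to 28687 and 26799 to 31881 and Lamp3 (0.28) and Cxcl15 (0.30) leading. Of 14 epithelial markers 0 passed (before adjustment, 2 higher and 1 lower at p under 0.05), with sums of 7212 to 7381 and 7111 to 7820 and Krt8 (0.30) and Elf3 (-0.25) leading. RMA gives no value of 0, so no marker was at 0, and the part of any of these cell types in the values of the 10 genes was not tested.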

How the data were processed

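Whole lungs of 3 control and 3 RbpjkCNULL embryos were measured on Affymetrix arrays, 1 lung per array. The deposited values are log2 values that the authors made by RMA, which subtracts background, quantile-normalizes the arrays and summarises probes (affy package, R 2.12.0), with 1 value per Entrez Gene. They were used as they stand. Symbols came from the platform table or, by Entrez Gene ID, from RefSeq, which together named 20768 genes and left 457 unnamed. Labels do not say whether the lungs came from separate litters.

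RbpjkCNULL and control were compared over all genes with limma 3.58.1 (lmFit, eBayes, R 4.3.3), two-sided, with Benjamini-Hochberg adjustment over all genes. "Rose", "fell" and "passed" mean an adjusted p under 0.05. By a two-sided exact permutation test, 0.1 is the smallest p that 3 lungs against 3 can give, and it was the value for each gene with separate groups. The fit was tested on simulated data. The number of arrays limits the precision. The background of single genes is not known.

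The 10 genes, the lists and the tests were chosen with earlier results of these data known, and some genes are in 2 lists. Lists are described by counts, medians and, for cell types, the sum of linear values per lung, without a list test. Named are the 10 genes, the genes of each list that passed or else the 2 with the smallest p, in part, and the 5 nearest profiles of the 2 genes with the smallest p. Saa1, Saa2, Saa4, Lyz1, S100g, Sftpc, Aldh1a1 and Chia1 were named after their values were seen. Alternatives were the methods' t-test (equal variance), limma with a trend, with array weights or with robust eBayes, 3 scalings, 2 filters on low values, the replicate number as a block, Xist or the lower quartile as a covariate, lungs of low Xist alone, and leaving out each lung.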

Additional observations from a re-analysis of the deposited data

How the results depend on the processing

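Under none of the 20 alternatives was any of the 10 higher past the threshold. Their median log2 fold change was -0.33 to -0.12. The count of the 10 lower at an adjusted p under 0.05 was 0. It became 1 with limma's trend (Wfdc2), the filter at the median (Wfdc2, with 4 of the 10 left) and the replicate block (Bpifb1). It was 2 with array weights (Saa3 and Wfdc2) and 0 to 2 with a lung left out (2 without control replicate 2). It was also 1 with the class block (Wfdc2), chosen after seeing the data. Where it was not 0, 26 to 84 of all genes tested fell, against 24. With the filter at the median 2 of the 10 had separate groups, against 5, since fewer were tested. Before adjustment, 4 to 7 of the 10 were lower at p under 0.05 where all 10 were fitted. The 7 were without RbpjkCNULL replicate 1, where 2361 of all genes had this p, against 1810.

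Over all genes 270 passed. The methods' t-test gave 8, the Xist covariate 0 (1418 at an unadjusted p under 0.05), lungs of low Xist alone 0 (1833 unadjusted), the class block 413 and leaving out a lung 139 to 236. For single genes of the 10, 175 values stayed on their side of the threshold with the same sign, 8 passed it and 8 changed sign. Lyz2 (0.16) became negative with array weights (-0.0608), the Xist covariate (-0.15), lungs of low Xist (-0.10) and without control replicate 2 or RbpjkCNULL replicate 1 (-0.0893 to 0.367 over all lungs left out). It was 0.51 with the lower quartile as a covariate (adjusted p = 0.184) and 0.38 with the class block, the 2 settings in which its unadjusted p was under 0.05. Lcn2 became positive with the lower quartile as a covariate (0.26), the class block (0.0856) and without RbpjkCNULL replicate 3 (-0.57 to 0.03 over all lungs left out). The cause was not tested. The ranges over the alternatives were -1.10 to -0.56 for Saa3 (adjusted p 0.0300 to 0.407), -0.39 to -0.29 for Wfdc2 (0.0242 to 0.711), -0.68 to -0.35 for Bpifb1 (0.0470 to 0.584), -0.59 to -0.28 for Pglyrp1 (0.0805 to 0.658) and -0.23 to -0.12 for Slpi (0.258 to 0.988).

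Deviations from the group mean of lungs with the same replicate number correlated at 0.49, 0.31 and -0.09. Not every lung correlated best with the lung of its own number. The lungs numbered 1 share a lower quartile class, as do those numbered 2, so the correlations cannot tell whether the number pairs lungs. With the replicate block 304 genes passed. Of list medians, 316 values moved by less than the spread between lungs and 23 by more. Of the scalings, cyclic loess turned the medians of the other acute phase, lipocalin and transferrin, and lysozyme genes above 0 (0.0076, 0.0108 and 0.0088) and quantile normalization those of the first 2 of these (0.0053 and 0.0079). With the filter at the median, which leaves few genes, it was 0.26 for the other BPI-fold genes, 0.20 for lysozyme genes, 0.044 for airway host defence, 0.54 for neutrophil markers and -1.31 for acute phase genes. With array weights, a covariate, the class block, lungs of low Xist alone or a lung left out, further medians near 0 changed sign, to between -0.093 and 0.037.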

Other observations

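Among the secreted defence genes outside the 10, Chia1, the acidic mammalian chitinase, had the largest value in the other direction, and it was chosen after its values were seen. Its log2 values were 6.09, 5.45 and 6.20 in control lungs and 6.83, 8.51 and 8.46 in RbpjkCNULL lungs. The groups did not overlap, but RbpjkCNULL replicate 1 lay closer to the controls than to the other RbpjkCNULL lungs. The log2 fold change of 2.02 (standard error 0.44) had an adjusted p of 0.117 from limma, so it did not pass.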
